A study of Cardamine hirsuta with 6 samples.

Results

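The HaloTag-ChCUC1 protein bound 392 regions of the *C. hirsuta* genome in vitro that the authors annotated as lying at a promoter and transcription start site, here called promoter-TSS peaks. They were chosen by 2 conditions. Each is a peak of the reproducible list of DNA affinity purification sequencing (DAP-seq), and the annotation of the row with the same chromosome, start and end in the authors' peak annotation table begins with promoter-TSS. Rows of that table were held for 1997 of the 2432 reproducible peaks, so the 392 peaks made up 19.6% of the annotated ones (95% exact binomial interval 17.9 to 21.4%). The other 435 peaks were not used here. They were the weaker ones, with a −log10 p of at most 26.4, so the promoter-TSS peaks described are those of the stronger part of the list.

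DAP-seq mixes a tagged transcription factor made in a cell-free system with sheared genomic DNA, recovers the bound fragments on beads and sequences them. ChCUC1 was expressed from wheat germ extract as a fusion to HaloTag, a protein tag that coated beads capture, and HaloTag alone served as the control. All DNA came from *C. hirsuta* of the Oxford genotype with no treatment named, from rosette leaves of plants aged 4 weeks by the extraction protocol, whereas the tissue label says seedlings. About 5 µg of DNA was sheared to 200 to 400 bp, and the labels name 3 samples with ChCUC1 and 3 with Halo alone. Purified DNA carries no nucleosomes or partner proteins, so a peak shows where the protein can bind and not where it binds in a leaf.

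ChCUC1 belongs to the NAC family of plant transcription factors. The *CUP-SHAPED COTYLEDON* (*CUC*) genes of this family act at the boundaries between organs, where growth is held back, and in leaves they are needed for serrations and leaflets. The stretch just upstream of a gene start holds the core promoter and many of the short motifs that transcription factors read, and a factor bound there can raise or lower transcription or have no effect on it.

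Each peak carries a fold enrichment, which is the authors' ratio of the ChCUC1 signal to the Halo control signal at the peak. The reproducible list was made over the ChCUC1 libraries by how consistently peaks rank, and it has no replicate error of its own. How the ranks were compared is not given. Besides it, 3 lists were available that were each called on 1 ChCUC1 library against the pooled Halo control. The whole-library list came from all reads of a library and held 4778 peaks. The other lists came from pseudoreplicates, random draws from the reads of 1 library, and are called here the longer pseudoreplicate list (3753 peaks) and the shorter one (3253 peaks). None of them carries a replicate number. Read counts were not used here, so sequencing depth is unknown. The 3 lists served as the measure of spread, and no list is independent of the reproducible one. The whole-library and the shorter list carry the same run label and the longer list another. The spread thus mixes library, run label and share of reads used. Nothing in the labels says that the samples came from separate DNA preparations, so this spread may be technical. Genes are named by the *A. thaliana* match that the annotation table gives.

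The promoter-TSS peaks ranged from weak ones to the peak with the highest fold enrichment of the reproducible list. Their fold enrichment had a median of 3.29, with quartiles of 2.75 and 4.17 and a range of 2.03 to 9.67. The −log10 p ran from 26.6 to 404, with a median of 56.5. A fold enrichment above 5 was reached by 43 of them, or 11.0%, where 12.7% of all annotated peaks passed that value. At the other end, 153 peaks, or 39.0%, stayed below 3, against 36.6% of all annotated peaks. Of the 100 annotated peaks with the highest fold enrichment, 16 were promoter-TSS peaks. The peaks were 366 to 1740 bp wide, with a median of 485.5 bp, and the summit lay within 50 bp of the centre in 330 of them (84.2%). They were assigned to 391 genes, and 253 peaks (64.5%, 59.6 to 69.3%) were at a gene with an *A. thaliana* match. Among the other annotated peaks, 73.8% had such a match (71.5 to 75.9%). These intervals cover counting error over peaks only.

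Most of the peaks lay upstream of a gene start, which the promoter-TSS category largely fixes, and the number per base rose towards the start. The distance from the peak centre to the nearest gene start ran from −1000 to 805 bp, where negative values are upstream, and had a median of −224.5 bp. There were 292 peaks upstream (74.5%) and 100 at or downstream of the start. The category covers about −1000 to 100 bp around the start of the gene it names, so most of its length is upstream. A majority upstream was thus built into the choice of peaks and does not show where ChCUC1 prefers to bind. The 250 bp on either side of a start held 180 peaks (45.9%), and 183 peaks (46.7%) covered a start with their interval. Position and strength were nearly unrelated. Spearman's rho of the fold enrichment and the absolute distance was −0.048 over the 392 peaks, which share the same libraries. The median fold enrichment was 3.31 for 49 peaks from −1000 to −751 bp and 3.41 for 64 peaks from −750 to −501 bp. It was 3.18 for 69 peaks from −500 to −251 bp and 3.06 for 110 peaks from −250 to −1 bp. The 58 peaks from 0 to 100 bp had the highest median of the 6 bins, 3.52, and 42 peaks further downstream had 3.23. In the single lists, the medians of the bin from 0 to 100 bp were 3.70, 3.66 and 3.63 in the whole-library, the longer and the shorter list, and those of the bin just upstream of the start were 3.30, 3.11 and 3.44. The 0 to 100 bp bin was thus higher than its upstream neighbour in each list, but in the shorter list the bins from −750 to −501 bp, with 3.71, and from −500 to −251 bp, with 3.69, were higher still. The difference between bins was not tested.

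**Figure D1:**
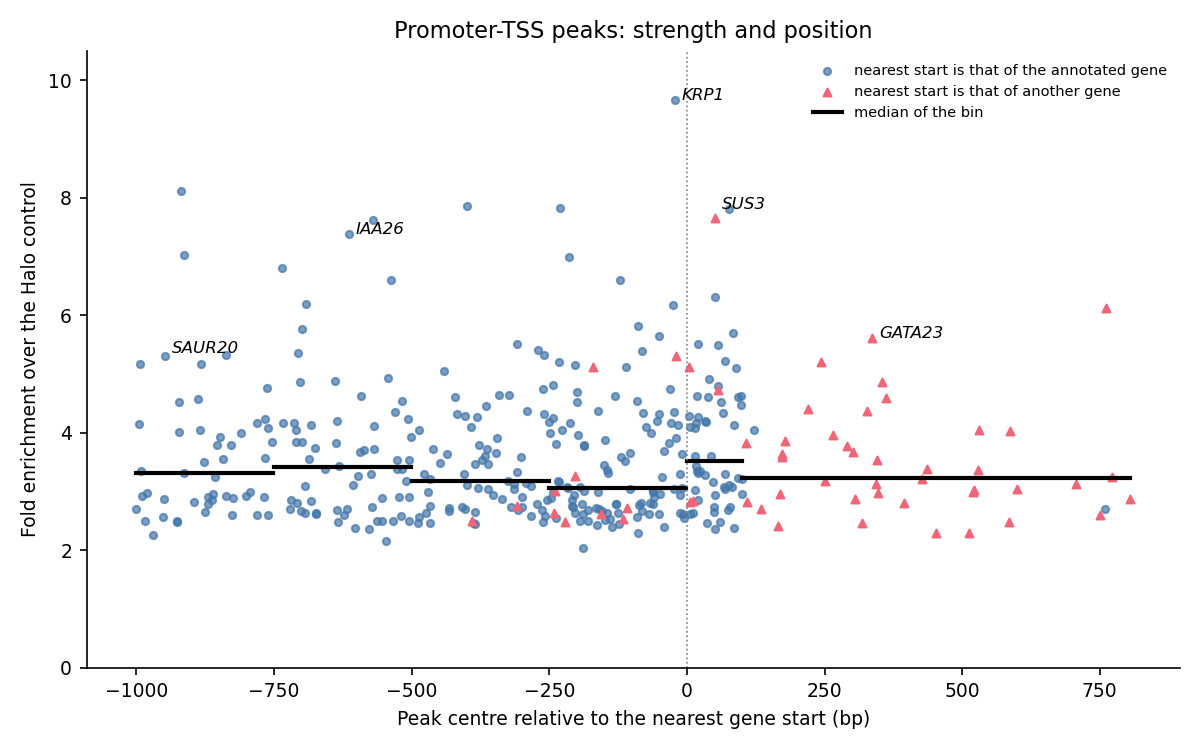
Fold enrichment over the Halo control of each of the 392 promoter-TSS peaks (points and triangles) against the distance in bp from the peak centre to the nearest gene start, with the median of each distance bin as a black line. The bin medians stay between 3.06 and 3.52 over the whole range, and the triangles, peaks annotated to the promoter of one gene but nearest to the start of another, make up nearly all of those beyond 100 bp.

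The strongest promoter-TSS peak belonged to CARHR293050 and was centred at −22 bp. This gene is the match of *KRP1*, which encodes an inhibitor of cyclin-dependent kinases, the enzymes that drive the cell cycle. It spanned positions 302404 to 302917 of scaffold NSCAFC.76. Its fold enrichment was 9.67 in the reproducible list, and 9.29, 8.70 and 7.39 in the whole-library, the longer and the shorter list. It ranked first among the promoter-TSS peaks in the whole-library list and in the longer list, and 6 in the shorter list. The peak at −613 bp from CARHR091710 (chromosome 3, 5663100 to 5663599), the match of *IAA26*, had 7.38 in the reproducible list and 7.01, 7.13 and 8.29 in the 3 single lists. *IAA26* encodes an Aux/IAA protein, a repressor of auxin-responsive transcription that is degraded when auxin is present. The order of *KRP1* and *IAA26* was turned around in the shorter list, so these peaks do not differ beyond the spread between lists. A peak 51 bp downstream of the start of CARHR250490 (chromosome 8, 1034298 to 1034823), the match of *SUS3*, which encodes a sucrose synthase, was the most even of these 3, with 7.66 in the reproducible list and 7.52, 7.63 and 7.58 in the single lists.

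The other 9 of the 12 highest peaks were at genes to which the sources used here give no symbol. CARHR232380 (AT4G24990) had 8.11 with its peak at −918 bp, and 7.89, 7.02 and 7.11 in the whole-library, the longer and the shorter list. CARHR268760 (AT5G55450) had 7.86 at −399 bp, and its 9.15 was the highest value of any promoter-TSS peak in the shorter list. CARHR077960, without a match, had 7.83 at −231 bp, and CARHR017900 (AT1G17310) had 7.81 at 76 bp downstream of the start. The remaining peaks were those of CARHR198450 with 7.62, CARHR207340 (AT5G05880) with 7.02, CARHR107820 with 6.99, CARHR280060 (AT5G67540) with 6.80 and CARHR211390 (AT5G01070) with 6.60. All 12 were called in each single list. Of these, 11 were again among the 12 highest promoter-TSS peaks of the whole-library list, 11 among those of the longer list and 9 among those of the shorter, where the lowest ranked 40. The shorter list moved CARHR207340 to 4.86 and CARHR280060 to 4.90.

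Of the 325 genes in 22 lists of gene families and functions, 74 had an annotated peak of any kind and 39 were the nearest gene to a promoter-TSS peak. These lists were drawn up with the names of the annotated genes in view, so 52.7% of the listed genes with a peak had a promoter-TSS peak, against 18.7% of all *A. thaliana* matches with a peak, and the counts per list show which genes are there and not how often. Peaks were assigned to the gene with the nearest start. For 33 of the 39 genes the annotation names the promoter of that same gene, and for *SUS3*, *GATA23*, *SAUR74*, *SAUR27*, *CRK36* and *SYP31* it names the promoter of a neighbour. The median fold enrichment of the 39 peaks was 3.54, beside 3.29 for all promoter-TSS peaks.

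Auxin response genes assigned a promoter-TSS peak were *IAA26* and members of the *SAUR* family, small auxin-induced genes of which several promote cell expansion. Of 29 Aux/IAA genes looked for, 4 had an annotated peak of any kind and *IAA26* alone had it at the promoter-TSS. Of 18 *SAUR* genes, 5 had a peak and 4 were nearest to a promoter-TSS peak, which for *SAUR20* and *SAUR47* lay at their own promoter. *SAUR20* (CARHR195040) stood highest, with 5.31 in the reproducible list and 5.34, 5.55 and 5.51 in the whole-library, the longer and the shorter list. *SAUR47* (CARHR095830) had 2.75. The peak nearest to *SAUR74* (CARHR087480), 250 bp inside it and at the promoter of CARHR087490, had 3.18, and both were called in each list. The peak nearest to *SAUR27* (CARHR077950), 519 bp inside it and at the promoter of CARHR077960, had 2.98 and was not called in the shorter list. *SAUR20* was above the other *SAUR* genes in each list that called them. Of the 19 genes of auxin transport and PIN-directing kinases 4 had an annotated peak, and of the 18 genes of organ boundaries and leaf shape 3, none of them at a promoter-TSS. With so few peaks, and 18.7% of all matched genes at a promoter-TSS, these counts of 0 say nothing particular about either list.

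Cell division genes with a promoter-TSS peak were *KRP1*, the only one of 9 CDK inhibitor genes with an annotated peak, and 3 of the 15 genes listed for cell cycle and replication. *HBT* (CARHR110420) encodes a subunit of the anaphase-promoting complex, which marks cell cycle proteins for destruction, and had 4.64 at −324 bp, with 5.13, 3.85 and 3.79 in the single lists. *CDKC;1* (CARHR203030), a cyclin-dependent kinase known mainly for its part in transcription, had 4.57 at −888 bp, with 4.66, 4.21 and 5.49. *RFC1* (CARHR191520) encodes the large subunit of the clamp loader of DNA replication and had 3.73 at −568 bp, with 3.79, 3.62 and 3.38. The values of *HBT* and *CDKC;1* overlapped across the lists, and *RFC1* was below both in each list. *KRP1* was above all 3 in each list.

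Genes of the cell wall and of sugar supply to it accounted for 8 of the listed genes with a promoter-TSS peak. *SUS3* and *MIOX2* were the only ones of 10 sucrose synthase and myo-inositol oxygenase genes with an annotated peak. *MIOX2* (CARHR110260), whose enzyme feeds a route to the sugar precursors of wall polysaccharides, had 5.49 at 56 bp, with 5.72, 5.37 and 4.40 in the single lists. Of 11 genes for pectin and other wall components, 6 had a peak and 4 a promoter-TSS peak. *GATL10* (CARHR292630), of a family of galacturonosyltransferase-like proteins, had 5.23 at 70 bp, with 5.47, 4.71 and 4.53. *LRX11* (CARHR242100) encodes a leucine-rich repeat extensin of the wall and had 4.62 at −131 bp, with 4.45, 4.45 and 4.27. *CEL5* (CARHR023230), a cellulase gene, had 3.29 at −12 bp. The peak of *QUA2* (CARHR071700), which is needed for pectin synthesis and cell adhesion in *A. thaliana*, had 2.91 at −870 bp and was not called in the longer list. Among 19 cellulose synthase-like genes 4 had a peak, and *CSLA9* (CARHR209540), a mannan synthase gene, with 4.74 and *CSLB5* (CARHR222020) with 3.09 had it at the promoter-TSS. *CSLA9* was above *CSLB5* in each single list, with 4.77 against 3.07 in the whole-library list, 4.07 against 3.67 in the longer and 5.44 against 2.44 in the shorter.

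Transcription factor genes of several families had promoter-TSS peaks, 6 of the 10 described here below the median of 3.29. *GATA23* (CARHR186640) is known in *A. thaliana* for marking the cells that found lateral roots. The peak nearest to it, inside the gene and at the promoter of CARHR186630, had 5.61, with 5.98, 5.22 and 4.74 in the single lists. The distal promoter of *GATA23* itself held a peak at −1251 bp with 2.62. *GIS3* (CARHR061080), a zinc finger gene of trichome initiation, had 4.76 at −762 bp, with 4.48, 3.65 and 4.93. *BLH11* (CARHR068830) encodes a BEL1-like homeodomain protein and had 4.61 at 92 bp, with 4.91, 4.75 and 3.89. Of 28 NAC genes, the family of ChCUC1 itself, 5 had a peak and *NAC089* and *BRN2* had it at the promoter-TSS. The *NAC089* peak (CARHR191270) had 4.01 at −922 bp, with 4.14, 4.01 and 3.81, and was above that of *BRN2* (CARHR256290), a root cap factor, in each list. *BRN2* had 2.80 at −129 bp, with 2.78, 2.76 and 2.47. Lower values were found for *GTL1* (CARHR032600), a trihelix repressor of trichome growth, with 3.12, and for the stress and defence regulators *WRKY75* (CARHR200390) with 2.99, *WRKY26* (CARHR206030) with 2.74, *TGA4* (CARHR203280) with 2.72 and *ERF6* (CARHR224160) with 2.68. The last 4 were each missing from 1 single list, *ERF6* from the longer and the other 3 from the shorter.

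Metabolic, transport and receptor genes made up the rest. *CYP86C4* (CARHR013520) and *CYP86C2* (CARHR147140), cytochrome P450 genes of the fatty acid omega-hydroxylase family, had 4.32 at −51 bp and 2.79 at −61 bp. *GSTF12* (CARHR195990), needed for anthocyanin to reach the vacuole, had 4.17 at −734 bp. *SYP131* (CARHR077870) with 3.49 and *SYP31* (CARHR207510), nearest to a peak at the promoter of CARHR207500, with 2.47 encode syntaxins, which guide membrane fusion, and *SPA1* (CARHR141620), a repressor of light signalling, had 2.99 and was not called in the shorter list. The cysteine-rich receptor-like kinase genes *CRK31* (CARHR255070), *CRK36* (CARHR253020) and *CRK39* (CARHR252960) had 3.84, 3.54 and 3.25, out of 8 of 32 *CRK* genes with an annotated peak. The *CRK36* peak was annotated to the promoter of CARHR253010. Of 8 *ABCA* transporter genes, 3 had a promoter-TSS peak. The values were 3.60 for *ABCA7* (CARHR156460), 2.91 for *ABCA3* (CARHR156420) and 2.75 for *ABCA8* (CARHR156470). *CRK* and *ABCA* genes are families of similar copies, and whether reads were shared between copies was not tested.

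The plot of the listed genes shows that the spread between lists was wide for some peaks, such as *QUA2*, with 3.13 in the whole-library list and 4.41 in the shorter one, and narrow for others, such as *SUS3*, *SAUR20* and *CRK31*.

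**Figure D2:**
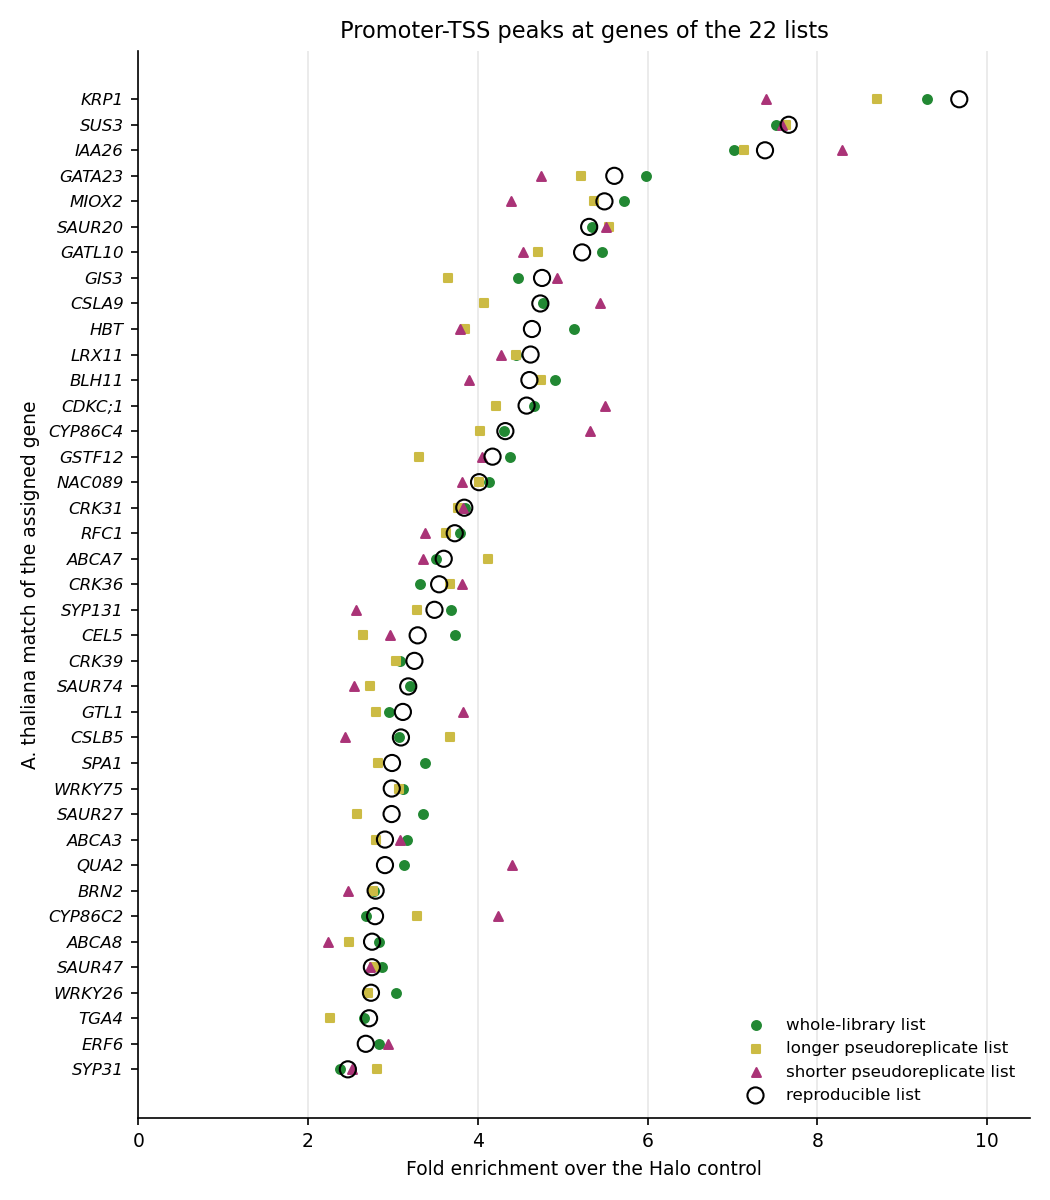
Fold enrichment over the Halo control at the 39 listed genes with a promoter-TSS peak, ordered by the reproducible list (open circles), with the value in each of the 3 single-library lists where the peak was called. *KRP1*, *SUS3* and *IAA26* lie above 7 in each list, and the values of most genes below 3.5 overlap one another.

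A set of 56 peaks lay in the promoter-TSS of one gene but had their centre nearest to the start of another. The neighbour was the next gene in locus number in 55 cases. In 45 of the 56 the peak lay downstream of the nearest start and in 11 upstream of it. Of the 42 peaks more than 100 bp downstream of the nearest start, 40 were of this kind. The median fold enrichment of the 56 peaks was 3.16, against 3.30 for the other promoter-TSS peaks. The highest was the *SUS3* peak, annotated to the promoter of CARHR250480. Next came the peak between CARHR243190 (AT4G34920) and CARHR243200, with 6.13 in the reproducible list and 5.71, 6.20 and 4.68 in the single lists, centred 761 bp inside the former. The *GATA23* peak was annotated to the promoter of CARHR186630 and lay 337 bp downstream of the *GATA23* start. CARHR005510 (AT1G05990) with 5.30, CARHR224250 (AT4G17550) with 5.20 and CARHR083960 (AT3G09550) with 5.12 followed. For such peaks the binding data do not tell which of the 2 genes, if any, is read from the site.

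Some promoters held more than 1 peak. CARHR075740 (AT3G01290, hypersensitive-induced response protein 3) was the one gene with 2 promoter-TSS peaks of its own, at −992 bp with 3.35 and at 21 bp with 5.51. They were annotated to different transcripts of the gene, so the distances need not be counted from the same start. The peak at the start was higher in each list, with 5.50 against 3.71 in the whole-library list, 5.22 against 3.03 in the longer and 4.23 against 2.96 in the shorter. The promoter of CARHR077960 held its own peak with 7.83 and a weaker one with 2.98 that was nearest to the start of *SAUR27*, with summits 737 bp apart. Over the genome, 22 pairs of neighbouring promoter-TSS peaks had summits within 10000 bp of each other.

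A second annotated peak, outside the promoter-TSS, was found at 35 of the 391 genes (8.95%), where 5.92% of all genes with an annotated peak had 2 or more. A gene with several peaks has more chances to hold a promoter-TSS peak, so these shares do not show an excess of second peaks. There were 36 such peaks, of which 11 lay at a transcript end, 9 in a later exon, 7 in an intron, 4 in the distal promoter, 4 between genes and 1 in a first exon. The promoter-TSS peak was the higher one in 15 genes and the lower one in 20. Its median was 3.37 against 3.60 for the highest other peak, and the median difference was −0.35. For 32 of the 35 genes the annotation places the promoter-TSS peak at the gene itself, and of these it was higher in 13 and lower in 19. CARHR207340 had its stronger peak at the promoter-TSS, with 7.02 against 3.24 in exon 2. The reverse was seen at *IQD4* (CARHR118390), of a family of calmodulin-binding proteins, with 4.24 at the promoter-TSS and 7.48 in exon 5, and at *PRN* (CARHR169610), which encodes the protein pirin, with 2.39 and 6.33 in exon 7. *ABCA3* and *ABCA8* had intron peaks of 5.04 and 4.93, higher than those at their promoters. *PRN* and the second peaks of these genes were singled out after their values had been seen.

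**Figure D3:**
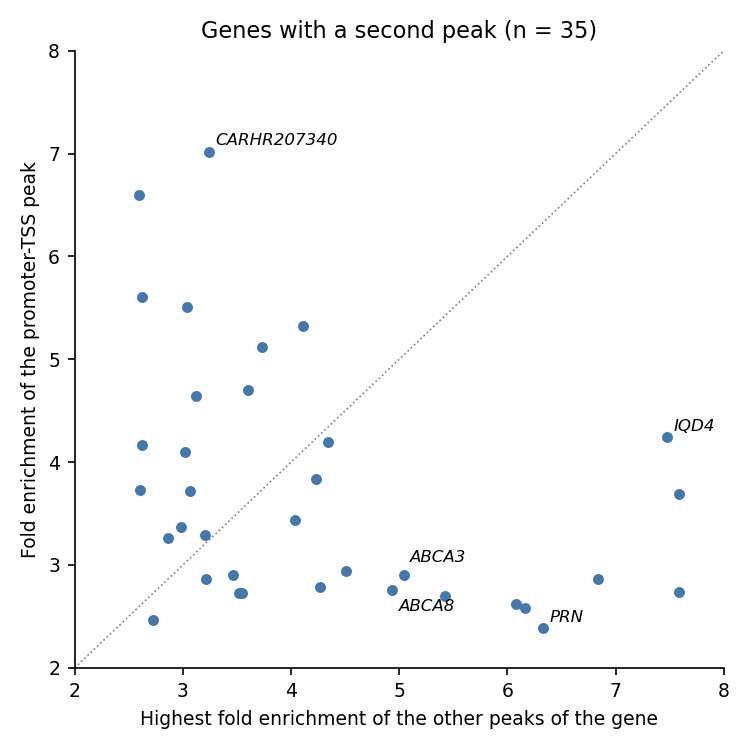
Fold enrichment over the Halo control of the promoter-TSS peak (vertical axis) against the highest other annotated peak of the same gene (horizontal axis), for the 35 genes that have both. Points above the dotted line of equal values, 15 in number, are genes such as CARHR207340 with the stronger promoter-TSS peak, and the 20 below it include *IQD4*, *PRN*, *ABCA3* and *ABCA8*.

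Nearly all promoter-TSS peaks were found again in the whole-library list and in the longer pseudoreplicate list, and the shorter list missed mainly the weak ones. With an overlap of at least 1 bp, the whole-library list called all 392, where 99.8% of all annotated peaks were called. The longer list called 379, or 96.7% (94.4 to 98.2%), and 96.7% of all annotated peaks. The shorter list called 279, or 71.2% (66.4 to 75.6%), where the share of all annotated peaks was 74.3%. Each of the 3 lists called 274 of them, or 69.9% (65.1 to 74.4%), beside 72.4% of all annotated peaks. When 50% of both peaks had to overlap, the shorter list held 16.3% and all 3 lists held 63 peaks. The median peak width of the shorter list was 196 bp, and 215 bp for its peaks at the promoter-TSS peaks. At 1 bp, a further 110 were called in 2 lists and 8 in the whole-library list alone, and none was missing from all 3, as was true of 0% of all annotated peaks. Sorted by fold enrichment into groups of 98, the shorter list called 37.8% of the lowest group, 59.2% and 88.8% of the middle ones and 99.0% of the highest. Peaks that covered a gene start were called in all 3 lists in 74.9% of cases and the others in 65.6%, with the same median fold enrichment of 3.29. Summits in the single lists lay a median of 5, 8 and 12 bp from the reproducible summit. The fold enrichments ranked alike, with Spearman's rho of 0.817 for the whole-library and the longer list (379 peaks), 0.764 for the whole-library and the shorter (279) and 0.714 for the pseudoreplicate lists (274). These peaks share the pooled Halo control, so rho is a description.

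**Figure D4:**
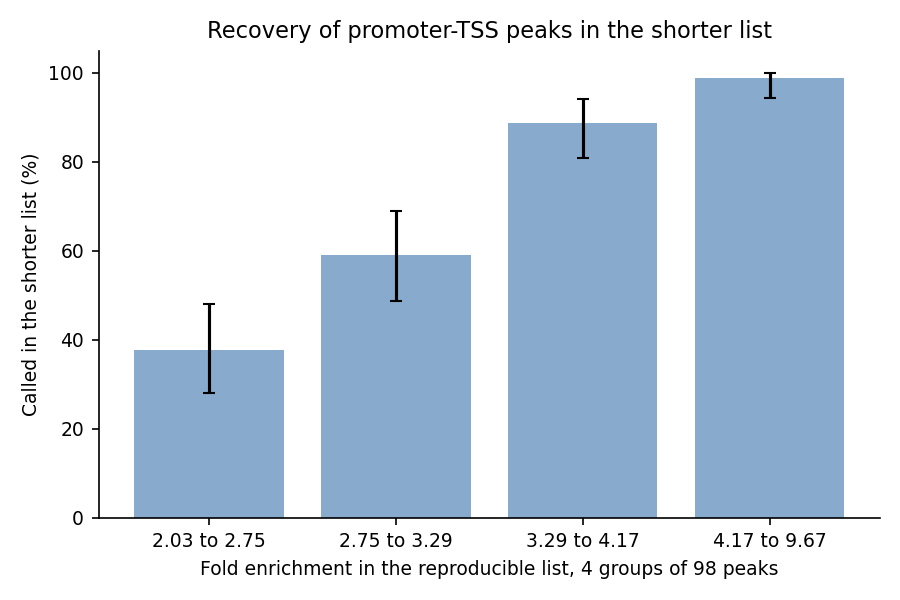
Share of promoter-TSS peaks called in the shorter pseudoreplicate list, in percent, for 4 groups of 98 peaks ordered by fold enrichment in the reproducible list; bars are shares and whiskers 95% exact binomial intervals. The share climbs from 37.8% in the weakest group to 99.0% in the strongest.

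In strength, the promoter-TSS peaks differed from the rest of the annotated peaks by less than the spread between lists. Against the 1605 other annotated peaks, whose median in the reproducible list was 3.28, the median of the promoter-TSS peaks differed by 0.022 (whole-library), −0.056 (longer) and 0.17 (shorter). Each of these medians covers only the peaks that the list called. In the shorter list these were 279 promoter-TSS peaks (71.2%) and 1205 others (75.1%). Among the promoter-TSS peaks it missed mainly the weak ones, and how far this moved the difference was not tested. The mean difference was 0.045 ± 0.115 (SD, n = 3 lists; exact two-sided sign-flip permutation test, p = 0.75). Against the 215 peaks of the distal promoter, further than 1000 bp upstream, it was 0.1 ± 0.09 and positive in 3 of 3 lists (n = 3, exact sign-flip permutation test, p = 0.25). Against the 292 peaks in first exons it was 0.056 ± 0.091 and positive in 2 of 3 lists (n = 3, exact sign-flip permutation test, p = 0.5). With 3 lists the smallest p this test can give is 0.25, so no difference could have passed 0.05. Of the 7 categories, introns had the highest median fold enrichment, 3.50, and the distal promoter the lowest, 3.13.

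Among the promoter-TSS peaks, 38 were at genes that the study lists as bound by ChCUC1 both in DAP-seq and in chromatin immunoprecipitation (ChIP-seq), which maps binding in plant tissue. This was 9.69% (6.95 to 13.1%), the lowest share of the 7 categories, where the share of all annotated peaks was 18.2%. The list holds 422 genes and was made from DAP-seq peaks among other criteria, and the annotation table was held in part, so the shares were not tested. Among first exon peaks the share was 25.7% (20.8 to 31.1%), among distal promoter peaks 15.3% (10.8 to 20.9%) and among peaks at transcript ends 12.7% (9.12 to 17.0%). Later exons had 18.7%, introns 14.8% and regions between genes 41.1% (33.8 to 48.8%). The interval of the promoter-TSS peaks did not overlap those of exons or intergenic regions, and it did overlap those of introns, transcript ends and the distal promoter. The gap was present at genes with an *A. thaliana* match, with 8.70% of promoter-TSS and 19.5% of other peaks, and at genes without one, with 11.5% and 22.3%.

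**Figure D5:**
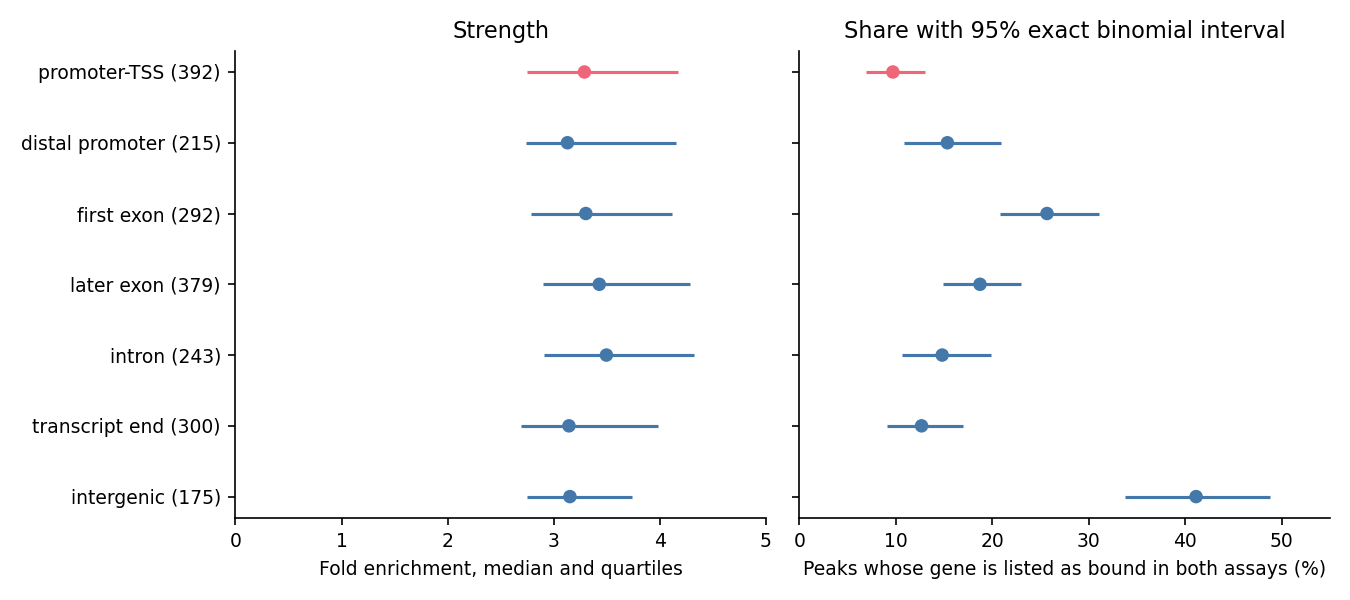
The 7 categories of annotated peaks with the number of peaks in each: on the left the median and quartiles of the fold enrichment over the Halo control, on the right the share of peaks, in percent with its 95% exact binomial interval, whose gene the study lists as bound in both assays. The promoter-TSS peaks (red) have a median like the others, 3.29, and the lowest share, 9.69%.

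The 38 peaks at genes bound in both assays had a median fold enrichment of 3.41, with a range of 2.46 to 7.62, and the other promoter-TSS peaks a median of 3.27. Of them, 30 lay upstream of the gene start and 26 were called in each single list. The highest was that of CARHR198450, with 7.62 in the reproducible list and 7.65, 7.25 and 8.23 in the single lists. CARHR284200 (AT1G58300) had 5.41 at −270 bp, CARHR047830 had 5.32 at −259 bp and CARHR100690 had 5.20 at −233 bp, and all 3 were above 4 in each list. *LRX11* and *IQD4* followed. None of *KRP1*, *IAA26* and *SUS3* is on that list. One of the 28 genes that the study counts as targets, *CRK39*, had a promoter-TSS peak, where 1.2% of all annotated peaks were at a target. It lay at −857 bp (chromosome 8, 2145072 to 2145523) with a fold enrichment of 3.25, was called with 3.08 in the whole-library list and 3.04 in the longer list, and was not called in the shorter one.

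The chromosomes differed in how many of their annotated peaks were at a promoter-TSS. The share was lowest on chromosome 4, with 32 of 227 (14.1%, 9.85 to 19.3%), and highest on chromosome 5, with 58 of 210 (27.6%, 21.7 to 34.2%), followed by chromosome 3 with 25.9%. The other 5 chromosomes lay between 15.8 and 19.9%. Another 13 promoter-TSS peaks, among them those of *KRP1* and *GATL10*, were on 10 unplaced scaffolds.

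At the limits of the rule, the furthest upstream member was at CARHR129980 (AT2G35736), at −1000 bp with a fold enrichment of 2.70, and the nearest peak outside was at CARHR197560 (AT5G15770), at −1007 bp with 2.50. The weakest members were those of CARHR125390, with a fold enrichment of 2.03, and CARHR090920, with a −log10 p of 26.6.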

How the data were processed

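DAP-seq of 3 ChCUC1 and 3 Halo control samples was analysed from 4 peak lists that the authors deposited. Bowtie, MACS2 and bedtools are named, with no versions, in the submitters' notes, and no genome build was found in the sources used here. In each list the authors deposited a fold enrichment over the Halo control (a ratio), the −log10 p-value, a score, and positions with the summit offset. The 3 single-library lists were called at a p-value threshold of 0.01 after removal of duplicates. Gene, category, distance and *A. thaliana* match came from the authors' annotation table, of which 82.1% of the rows were held. Symbols came from the study's gene lists or, for 24 peaks, from a hand-written list of *A. thaliana* codes.

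Peaks were matched between lists by an overlap of at least 1 bp, taking the authors' values. Shares have 95% exact binomial intervals, which cover counting error only. Medians were compared per list, with an exact sign-flip test over 3 lists. Scripts ran in Python 3.11.15 with pandas 2.3.3, NumPy 2.4.6, SciPy 1.17.1 and matplotlib 3.10.9 and were tested on simulated data. Named were the 12 highest peaks, the peaks at listed genes, promoters with 2 peaks, the 6 highest at genes bound in both assays and the target among them, the 6 highest with differing gene assignments, and the limits of the rule. The members and lists were chosen with earlier results of these data known. The alternatives were stricter overlaps, near summits, the top score (1000), the top 50% of each list, a distance rule, ranking by p-value and leaving out each list. No sequence was analysed here, because no genome of that build was at hand.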

Additional observations from a re-analysis of the deposited data

How the results depend on the processing

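No paired analysis was possible because no list has a replicate number and all used 1 pooled control. The median fold enrichment of the promoter-TSS peaks, 3.29, was 3.60 at the top score and 3.80 for peaks called in each of the 3 lists. When 50% of both peaks had to overlap, 98.7% were found in the whole-library list and 16.3% in the shorter list, and 63 rather than 274 were found in each list. The shorter list had a median peak width of 196 bp, and of 215 bp at the promoter-TSS peaks. With summits within 100 bp the share in the longer list was 94.4%. Against the top 50% of each list the shares were 98.5, 84.7 and 62.5%. The difference in median fold enrichment from the other annotated peaks turned negative by −log10 p (−0.126 in that unit) and without the shorter pseudoreplicate list (−0.0173), with a range of −0.0173 to 0.0957 over the lists left out. The difference from first exon peaks was −0.0211 at an overlap of 50% and −0.636 by −log10 p, and 0.00504 to 0.0933 with each list left out. That from distal promoter peaks was 0.056 to 0.146 with each list left out and positive under the other alternatives. The count found in each remaining list was 274 to 379, the highest without the shorter list. In all, 36 comparisons of these values, some of them given above, stayed within their limits, among them the share of peaks at genes bound in both assays. For a difference in medians the limit was an unchanged sign, whatever the size of the change. Among the 58 named peaks, 72 single-list values moved beyond their limit and 94 did not. Here the limit was the SD of the same peak's values in the single lists, so an even peak passes it with a small shift. For *SUS3*, 7.52 in the whole-library list and 7.58 in the shorter list counted as moved from 7.66. The cause of the moves was not tested. Depth is unknown, and the shorter list called 37.8% of the weakest group.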

Other observations

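Further promoter-TSS peaks lay at genes of other functions that carry a symbol in the study's gene lists. They fall outside the rule for named genes, and this choice was made with their values known. *EXL6* (CARHR077000), of a family of secreted exordium-like proteins, had a fold enrichment of 4.17 at −714 bp, with 4.29, 3.54 and 4.18 in the whole-library, the longer and the shorter list. *JAL22* (CARHR134070), a jacalin-related lectin gene, had 4.04 at −885 bp. The match of *ATSWC6* (CARHR272280), a subunit gene of a complex that places a histone variant in chromatin, had 3.55 at −842 bp, and its 2.33 in the shorter list was well below its 4.06 in the longer list. The ion channel gene *ATCNGC16* (CARHR156730) had 3.06 at −9 bp. *BAC2* (CARHR074590) encodes a mitochondrial carrier of basic amino acids and had 2.62 at −156 bp, in a peak annotated to the promoter of CARHR074580. All 5 are listed by the study as bound in both assays. *NDB4* (CARHR111470), for an alternative NAD(P)H dehydrogenase of mitochondria, with 3.34, *ORP1A* (CARHR124550), for an oxysterol-binding protein-related protein, with 2.94, and the cytochrome P450 gene *CYP72A8* (CARHR089600), with 2.55, are not on that list. Of the 8 peaks, that of *ORP1A* was the one not called in the shorter list.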
